A study of Mus musculus with 32 samples.

Results

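The mitochondrial ribosomal proteins are nuclear genes whose products build the ribosome inside mitochondria. Their transcripts were followed through single mouse eggs and 2-cell embryos. All rows of the expression table whose symbol is Mrpl or Mrps followed by a number, with or without 1 letter, were taken, which gave 78 of 54532 genes, 49 of the large subunit (Mrpl) and 29 of the small subunit (Mrps). All 78 are annotated as protein-coding, and the pseudogenes with such names are left out. RNA came from 32 libraries, each made from 1 egg or 1 embryo with the SMART-seq v4 kit, which primes cDNA on poly(A) tails. The groups were 3 eggs labelled Trp53 KO and 3 WT eggs (both metaphase II), 6 embryos labelled Trp53 MZ-KO and 8 WT embryos at the early 2-cell stage, and 6 labelled Trp53 MZ-KO and 6 WT at the late 2-cell stage. Early embryos were taken 28 to 32 hours and late embryos 48 hours after hCG, the hormone that triggers ovulation, and embryos were cultured in KSOM medium.

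Trp53 encodes p53, a transcription factor of the response to DNA damage and other stress. Per the labels' protocols, the KO allele lacks exons 2 to 10 of Trp53 and was made with a Ddx4::Cre driver, which acts in germ cells. MZ-KO embryos, without maternal and zygotic product, came from Trp53 KO females crossed with Trp53 KO males; the protocols do not describe how the KO eggs were obtained. The WT control embryos were Trp53 flox/flox, with both alleles floxed, and the allele was kept on a mixed Bl6/C57 background. The series calls the samples biological replicates but does not tie them to females, so p-values measure the spread between single eggs or embryos, which may share a mother.

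Mitochondrial ribosomes translate the small set of messages encoded by mitochondrial DNA, all of them subunits of the respiratory chain and ATP synthase. Their RNA is made in the organelle, while every protein is encoded in the nucleus, translated in the cytosol and imported. The mouse egg carries a large store of mitochondria that are parted among the first cells, and the 2-cell stage is when the embryo destroys maternal messages and starts its own transcription.

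Trp53 was at 0.311 to 1.11 FPKM in early embryos labelled MZ-KO and 2.60 to 9.29 in WT early embryos, but at 6.33 to 9.81 FPKM in KO eggs and 6.16 to 10.3 in WT eggs, and at 1.48 to 5.39 FPKM in MZ-KO late embryos and 0.557 to 7.09 in WT late embryos. The level of Trp53 RNA therefore does not separate the labelled genotypes in eggs and late embryos, where the groups overlap. The table has 1 value per gene and does not separate deleted from retained exons, and every direction given for these groups rests on their labels. FPKM (reads scaled to gene length and library size) is relative to the library, so less RNA in an embryo and fewer copies of a gene cannot be told apart. Low values of short genes showed that gene length had been taken as the genomic span with introns, and that the scale of each library corresponds to 7100000 to 27200000 reads. The median member had 116 to 1445 reads in a library, and 27 of 2496 member values were at 0. All 8 egg and oocyte markers were above 0 in all 6 groups at the median, and all 9 cumulus and granulosa cell markers stayed under 1 FPKM in every library.

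Of the members, 42 overlap another annotated gene, and 13 of them do so on the same strand. The kit does not mark strand, so reads of such pairs cannot be told apart. The 78 genes lie on 17 chromosomes and span 789 to 121773 bp.

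In late 2-cell embryos, the members as a group were higher in embryos labelled MZ-KO than in WT, in both subunits. Of 66 members tested, 45 rose and 0 fell, and the median log2 difference was 0.92, against 0.07 over all 8772 genes tested. Of all genes tested, 31.9% were called, 18.5% higher and 13.4% lower. Mrpl36, Mrpl28 and Mrps18c, counterparts of bacterial ribosomal proteins, had the largest rises, with log2 differences of 2.80, 2.15 and 2.09. The stalk protein gene Mrpl12 and Mrpl34, the highest member per exon length, did not pass the test, with 0.50 and 0.42.

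These calls are from limma on log2(FPKM + 1) over all genes that reached FPKM 1 in 6 or more of the 12 libraries, with Benjamini-Hochberg adjusted p below 0.05. A member that is at FPKM 1 only in MZ-KO embryos passes this filter through the group where it is high, so the count over tested members is a description. Without any filter, all 78 members entered, 40 rose and 0 fell, where 7.88% of all genes were called, 5.23% higher and 2.65% lower. Of the 78, 72 lay above 0. After median-ratio scaling, 35 of 65 rose and 0 fell, where 12.7% of genes were called higher and 18.8% lower. That scaling moved the median of all genes to -0.07 and the median of the members to 0.74.

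**Figure D1:**
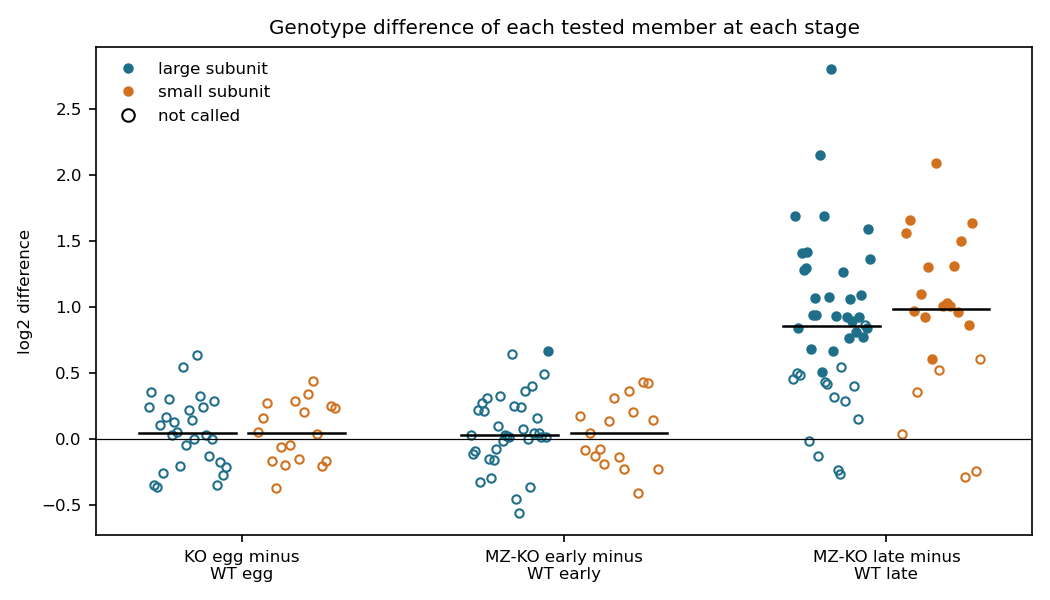
Log2 difference of each tested member between knockout-labelled and WT libraries in eggs, early embryos and late embryos (y axis, log2(FPKM + 1) scale). Each point is a member, filled where the adjusted p was below 0.05, and the black bars are medians by subunit. The points of eggs and early embryos lie around 0, and those of late embryos have medians of 0.86 (large subunit) and 0.99 (small subunit).

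The values of single libraries show how far the groups part. Mrpl36 (chromosome 13, 73328513 to 73332178 in mm10, plus strand) encodes the counterpart of bacterial L36, a small protein of the large subunit. Its FPKM was 7.08, 8.96 and 14.4 (lowest, median, highest of 6) in MZ-KO late embryos and 0, 0.425 and 1.53 in WT late embryos. Every MZ-KO late embryo lay above every WT late embryo, and also above all 20 eggs and early embryos, where it was at most 2.65. The log2 difference in late embryos was 2.80 (SE 0.26, limma adjusted p = 4.2e-05). It overlaps Ndufs6 on the other strand, a subunit gene of respiratory complex I, which averaged 2.04 FPKM in MZ-KO late embryos and 0.052 in WT late embryos.

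Mrpl28 (chromosome 17, 26123500 to 26126613, plus strand), the counterpart of bacterial L28, overlaps no annotated gene. Its FPKM was 56.5, 66.3 and 90.9 (lowest, median, highest) in MZ-KO late embryos and 1.59, 19.7 and 41.9 in WT late embryos. The log2 difference was 2.15 (SE 0.54, limma adjusted p = 0.0097). The WT embryos spread widely and still all stayed below the MZ-KO embryos.

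Mrps18c (chromosome 5, 100798627 to 100804471, plus strand) encodes 1 of 3 related proteins that share descent from bacterial S18. It was at 8.18, 14 and 19.1 FPKM (lowest, median, highest) in MZ-KO late embryos and 1.30, 2.00 and 6.38 in WT late embryos, which is a log2 difference of 2.09 with SE 0.30 (limma adjusted p = 3.5e-04). Its groups do not overlap either. Gm43511 overlaps it on the same strand and moved with it, with a log2 difference of 2.32 (adjusted p = 4.6e-04), so the share of each in these reads is unknown. The related genes Mrps18a, whose protein sits in the large subunit in mammalian structures, and Mrps18b had log2 differences of 1.30 (adjusted p = 9.7e-04) and 0.61 (adjusted p = 0.030). Mrps18a overlaps Rsph9 on the other strand, which was also called higher (1.22, limma adjusted p = 0.0017), so these 2 may share reads. Mrps18a was at 1.01 to 3.65 FPKM in MZ-KO late embryos and 0 to 0.787 in WT late embryos, so it entered the test through the MZ-KO embryos alone. It was the 1 tested member with no WT late library at FPKM 1, and without the filter its adjusted p was 0.0056. Other members, among them Mrpl36, Mrpl30 and Mrpl19, also met the filter through their MZ-KO embryos. Most of their WT late libraries were under FPKM 1, with ranges of 0 to 1.53, 0.315 to 1.23 and 0.298 to 2.11 FPKM. Without the filter the calls of Mrpl36, Mrpl30 and Mrpl19 stayed the same.

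Counts by place in the ribosome stand beside 68.2% of all tested members and 18.5% of all genes tested that rose. Whether any place differs from the other members was not tested. The stalk, where translation factors dock, had 3 rises among its 5 members. Mrpl11, at the base of the stalk, had 4.05, 6.34 and 7.53 FPKM (lowest, median, highest) in MZ-KO late embryos and 0.644, 1.11 and 1.71 in WT late embryos, with no overlap (log2 difference 1.69, SE 0.19, adjusted p = 8.0e-05). Mrpl53 (1.09) and Mrpl54 (0.78) were the other called stalk members. Mrpl12, which carries the factor-binding arms of the stalk, had 15.1, 42.1 and 51.6 FPKM in MZ-KO late embryos and 19.8, 23.8 and 29.8 in WT late embryos, and was not called (0.50, adjusted p = 0.17). A single MZ-KO embryo, library 5, lay below all WT embryos in Mrpl12, and without it Mrpl12 was called (0.73, adjusted p = 0.013). Mrpl10 was not called (0.45, adjusted p = 0.24).

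At the exit of the peptide tunnel, all 3 tested members rose. These were Mrpl22 (1.07), Mrpl24 (0.94) and Mrpl45 (0.77), the last of which ties the ribosome to the inner membrane. The central protuberance, the crest of the large subunit, had 3 rises among 6 tested members. They were Mrpl58 (1.59), a peptidyl-tRNA hydrolase that frees stalled ribosomes, Mrpl18 (1.30) and Mrpl46 (1.06). Its other tested members, Mrpl38 (0.32), Mrpl27 (-0.13) and Mrpl40 (-0.27), were not called. Of 4 proteins at the core near the catalytic centre, Mrpl16 (1.41) and Mrpl3 (0.51) rose, and Mrpl2 (-0.01) and Mrpl4 (-0.23) were not called.

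In the small subunit, 16 of 22 tested members rose, with a median of 0.99, and in the large subunit 29 of 44, with a median of 0.86. The difference of the medians, large minus small, was -0.13. All 6 tested small subunit proteins found in mitochondria only rose, led by Mrps34 and Mrps26. Over all tested members 68.2% rose, and no list of this paragraph was tested against the rest. Mrps34, needed for the stability of the small ribosomal RNA, had 5.83, 11.4 and 18.8 FPKM (lowest, median, highest) in MZ-KO late embryos and 1.15, 2.96 and 5.32 in WT late embryos, without overlap (1.63, SE 0.31, adjusted p = 0.0020). Mrps26 had 21.5, 24.4 and 33.5 FPKM in MZ-KO late embryos and 4.06, 9.20 and 13.1 in WT late embryos, also without overlap (1.5, SE 0.24, adjusted p = 6.2e-04). On the genome, Mrps34 overlaps the genes Mapk8ip3 and Nme3, 1 of them on the same strand, and Mrps26 overlaps 4930473A02Rik on the other strand. Of the 14 tested members with bacterial relatives 9 rose. Mrps12, a protein of the decoding centre, was among them (1.66, SE 0.35, adjusted p = 0.0036), with 5.95, 15.4 and 24.9 FPKM in MZ-KO late embryos and 1.37, 4.26 and 8.11 in WT late embryos. Here the ranges overlap.

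Among the other large rises were Mrpl30 (1.69), Mrps11 (1.56) and Mrpl19 (1.42). Mrps11 and Mrpl46 overlap head to head on opposite strands, so the pair may share reads. In all, 24 of the 66 tested members had every MZ-KO late embryo above every WT late embryo, where 8.21% of all tested genes did, and 0 had every MZ-KO late embryo below, where 5.48% of genes did. The members that overlap no other gene gave 21 rises among 30 tested. The uncalled member with the lowest difference was Mrps30 (-0.28, adjusted p = 0.40), which like Mrps18a sits in the large subunit despite its name. The uncalled member with the highest was Mrpl55 (0.87, adjusted p = 0.15). It too was called without MZ-KO late library 5 (1.22, adjusted p = 0.019).

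**Figure D2:**
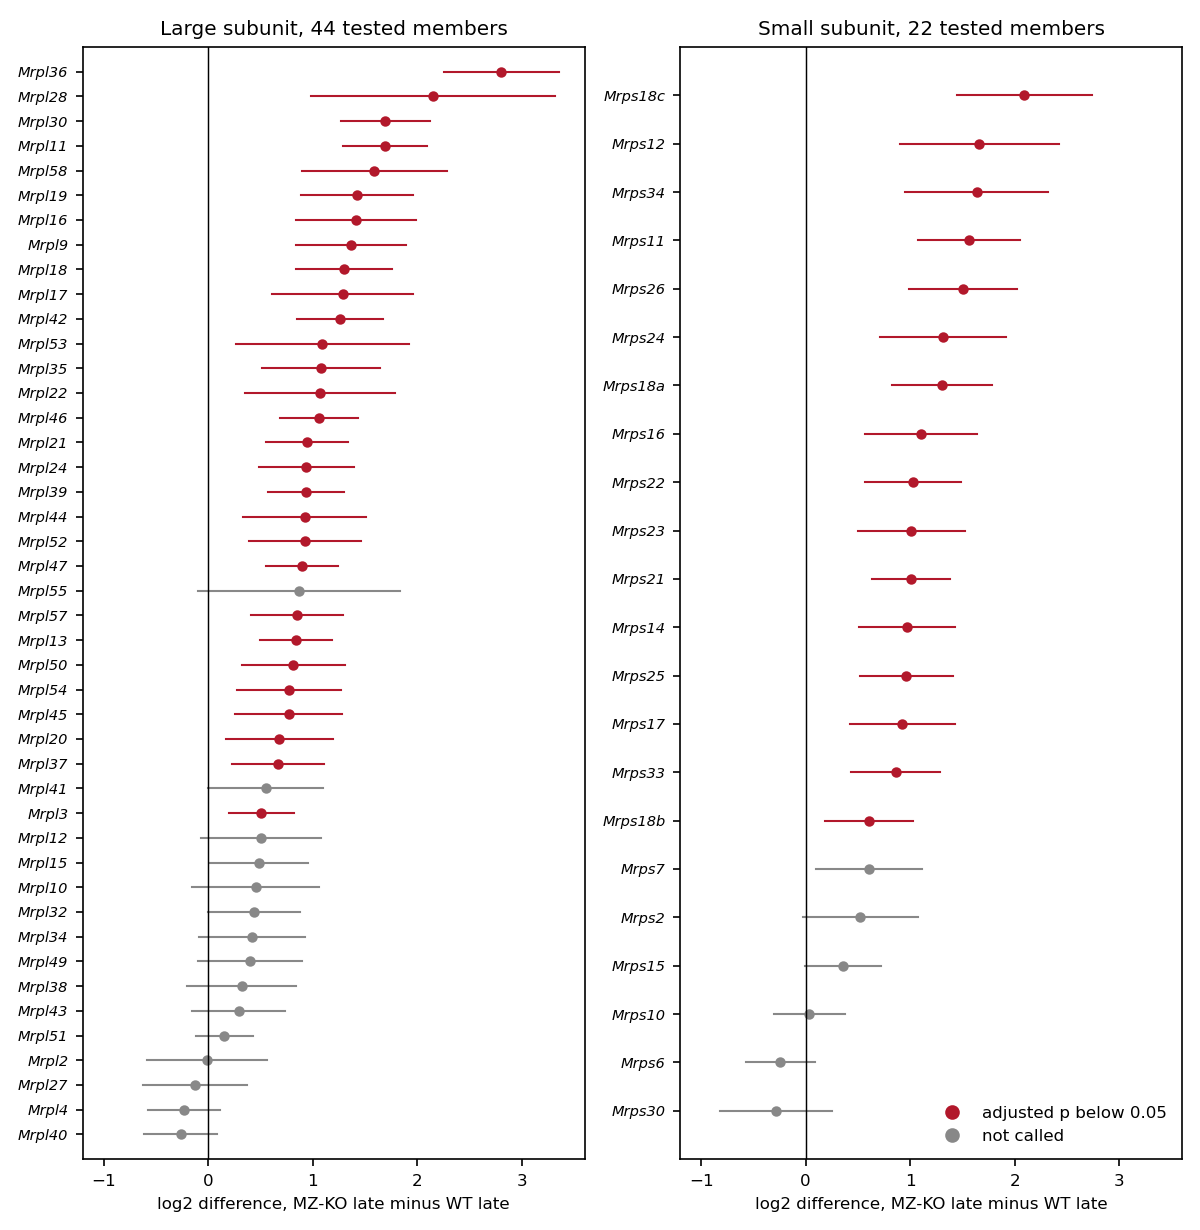
Log2 difference between MZ-KO late and WT late embryos with its 95% interval for the 44 large subunit (left) and 22 small subunit members tested (right), on the log2(FPKM + 1) scale. Red marks an adjusted p below 0.05 and grey the others, and 45 of the 66 members are red, all to the right of 0.

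The 12 members not tested in late embryos were Mrpl1, Mrpl14, Mrpl23, Mrpl33, Mrpl48, Mrps5, Mrps9, Mrps27, Mrps28, Mrps31, Mrps35 and Mrps36. They were under 1 FPKM in more than 6 of the 12 libraries. Mrps36 is a ribosomal protein by name only, since its product belongs to the oxoglutarate dehydrogenase complex. The authors' deposited table also holds 1 comparison that names neither its groups nor its direction. Its fold changes were read as WT late over MZ-KO late embryos, since they correlated with those FPKM ratios (Pearson r = 0.943 across 9322 genes, which are not independent replicates). Read so, in the authors' deposited table all 78 members have an adjusted p, 46 of them below 0.05 and higher in MZ-KO and 2 (Mrpl4 and Mrps6) below 0.05 and lower. Of 23684 genes in the authors' deposited table, 10.6% were higher and 10.0% lower in MZ-KO, and 40 members were higher in MZ-KO both there and in the limma fit. The direction was inferred from the FPKM ratios of the same embryos, so this overlap is not independent evidence.

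Summed over all members, FPKM was 897 to 1381 (mean 1242 ± 183 SD, n = 6) in MZ-KO late embryos and 653 to 915 (mean 778 ± 83.3 SD, n = 6) in WT late embryos. MZ-KO late library 5 lay lowest of its group, below the highest WT late library. The mean of log2(FPKM + 1) over members was 2.63 to 3.23 in MZ-KO late embryos and 2.02 to 2.39 in WT late embryos, without overlap. At FPKM 1 or more stood 66 to 69 members in MZ-KO late embryos and 54 to 65 in WT late embryos. Other measures moved with the groups too. Genes of all kinds at FPKM 1 or more numbered 9013 to 9745 in MZ-KO late embryos and 7989 to 9417 in WT late embryos. The 5 genes listed as markers of the late 2-cell stage summed to 37.9 to 146 FPKM in MZ-KO late embryos and 85.9 to 269 in WT late embryos. Tdpoz4 carried most of this sum, with a median of 41.9 FPKM in MZ-KO late and 135 in WT late embryos. Medians of Zscan4c, Zscan4d and Eif1a were also lower in MZ-KO late embryos, and that of Usp17la was higher (1.52 in MZ-KO late and 0.791 in WT late embryos). Not all 5 marked the late stage here, as Usp17la had medians of 2.84 in MZ-KO early and 4.66 in WT early embryos. In MZ-KO embryos Zscan4c and Zscan4d were at 5.19 and 7.79 early and at 3.55 and 3.56 late. In WT embryos Zscan4c was at 12.4 in both stages, and Zscan4d at 10.2 early and 19.5 late. The 8 egg and oocyte markers summed to 46.5 to 146 FPKM in MZ-KO late embryos and 56.0 to 84.1 in WT late embryos. Of the 5 blood and immune cell markers, Hba-a1 was at 14.6 to 73.5 FPKM in MZ-KO late embryos and 4.71 to 12.4 in WT late embryos, while Ptprc was at 0 in all of them and Hbb-bs at most 0.056. The 4 sperm markers summed to 7.60 to 13.5 FPKM in MZ-KO late embryos and 10.1 to 28.7 in WT late embryos. Prm1 carried most of this sum, with a median of 8.08 FPKM in MZ-KO late and 14.2 in WT late embryos. Prm2 had medians of 0.17 and 0.28 in these groups, and Tnp1 and Tnp2 had medians of 0 in both. The part of these measures in the rise of the members was not tested.

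**Figure D3:**
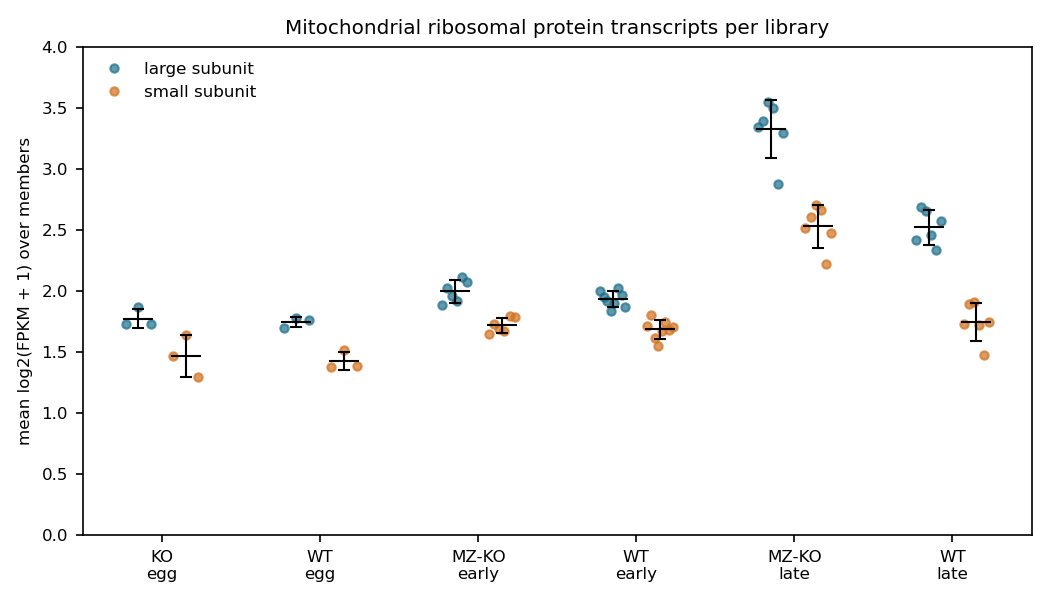
Mean log2(FPKM + 1) over the 49 large subunit (blue) and 29 small subunit members (orange) in each library, by group. Points are libraries and black bars give the mean and SD of the group. In late embryos the MZ-KO libraries lie above the WT libraries in both subunits, and eggs and early embryos of both genotypes lie between 1.29 and 2.12.

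Promoters of members that rose and of members that did not were read from RefSeq (build GRCm38.p6, the patched form of mm10), which held a window from 250 bases before to 50 bases after the start for 69 of the 78 members. The bases before the start are shown for the 3 largest rises and for Mrpl40, 1 of the 2 lowest uncalled members with a window, with matches to the ETS, NRF1 and YY1 motifs in capitals (both matches are on the reverse strand).
Mrpl36: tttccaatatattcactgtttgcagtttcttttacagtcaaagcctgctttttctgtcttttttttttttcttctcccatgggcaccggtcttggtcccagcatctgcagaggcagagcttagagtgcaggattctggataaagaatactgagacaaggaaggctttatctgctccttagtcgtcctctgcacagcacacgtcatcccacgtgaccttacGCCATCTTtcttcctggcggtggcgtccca
Mrpl28: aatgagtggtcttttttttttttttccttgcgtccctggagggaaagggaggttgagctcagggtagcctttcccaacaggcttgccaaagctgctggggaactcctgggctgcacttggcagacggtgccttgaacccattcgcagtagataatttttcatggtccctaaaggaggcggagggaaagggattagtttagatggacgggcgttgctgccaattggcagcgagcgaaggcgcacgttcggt
Mrps18c: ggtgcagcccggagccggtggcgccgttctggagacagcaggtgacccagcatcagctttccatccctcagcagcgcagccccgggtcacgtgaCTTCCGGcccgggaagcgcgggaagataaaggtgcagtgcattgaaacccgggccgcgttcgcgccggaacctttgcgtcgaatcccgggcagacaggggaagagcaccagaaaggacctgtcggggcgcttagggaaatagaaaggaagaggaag
Mrpl40: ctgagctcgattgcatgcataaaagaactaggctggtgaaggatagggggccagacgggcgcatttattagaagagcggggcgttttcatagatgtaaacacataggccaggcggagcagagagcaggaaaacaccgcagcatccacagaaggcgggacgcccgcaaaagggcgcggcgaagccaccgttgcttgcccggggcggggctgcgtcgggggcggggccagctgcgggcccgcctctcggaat
The windows lie at chr13:73330759-73331008, chr17:26123253-26123502, chr5:100798509-100798758 (plus strand) and chr16:18876638-18876887 (minus strand, shown 5′ to 3′ in the direction of the gene). Counted from the RefSeq start, the YY1 match of Mrpl36 begins at -30 and the ETS match of Mrps18c at -156. The RefSeq start of Mrpl36 lies inside the longer span given above, and those of Mrps18c and Mrpl40 also lie downstream of the start of their annotated spans. The whole window shown for Mrpl36, most of that for Mrpl40 and part of that for Mrps18c thus lie inside the annotated gene. For Mrpl28 the 2 starts differ by a few bases only. The windows of Mrpl28 and Mrpl40 hold none of the 3 motifs.

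The motifs were searched on both strands in the whole 300 bases. CCGGAAG, bound by ETS factors such as GABP, was in 34.7% of the 75 member windows and in 8.86% of all 32851 windows. The NRF1 motif (GCGC, any base, then TGCGC) was in 17.3% of member windows and 4.60% of all windows. AAGATGGC, bound by YY1, was in 16% of member windows and 2.75% of all windows. These factors are known for binding promoters of nuclear genes of mitochondria. At least 1 of the 3 was in 57.3% of member windows and 14.7% of all windows. GGGCGG, the GC box, was in 52.0% of member windows and 35.7% of all windows, and TATAAA in 6.67% of member windows and 13.6% of all windows. Perfect matches to the p53 half-site were in 8.00% of member windows and 8.36% of all windows. Some members have more than 1 window, as Mrpl2 does among these matches, and by member 4 of the 69 held a match. Among members with a window, the ETS motif was in 19 of the 41 that rose in MZ-KO late embryos and in 4 of the 18 tested and not called. NRF1 was in 9 of the 41 and 2 of the 18, and YY1 in 8 of the 41 and 3 of the 18. The GC box was in 17 of the 41 and 10 of the 18, which goes the other way. TATAAA was in 4 of the 41 and 0 of the 18, and the p53 half-site in 2 of the 41 and 1 of the 18. None of these splits was tested. A match is a run of letters and does not show binding.

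In early embryos, differences between genotypes were few. Of 52 members tested, 1 rose and 0 fell in MZ-KO early embryos, where 3.28% of all genes were called, 2.58% higher and 0.704% lower. No member had all MZ-KO early embryos above or all below the WT early embryos, where 1.36% of genes were above and 0.365% below. The member that rose was Mrpl9 of the large subunit, at 6.69, 9.77 and 10.0 FPKM (lowest, median, highest) in MZ-KO early embryos and 3.76, 5.11 and 7.15 in WT early embryos. The ranges overlap, and the log2 difference was 0.67 (SE 0.13, limma adjusted p = 0.017). Mrpl9 overlaps the gene Oaz3 on the other strand. Of the 24 tested members that overlap no other gene, 0 were called. Mrpl4 was next at 0.65 (adjusted p = 0.057), and Mrpl43 had the lowest value at -0.56 (adjusted p = 0.44). The median was 0.04 over members and 0.05 over all genes. This count rests on few genes, and was 0 without the filter, 4 without WT early library 2, and 2 without WT early library 3 or MZ-KO early library 1.

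In eggs, 0 of 46 tested members were called by limma, where 0.333% of all genes were called. At an unadjusted p under 0.05 stood 1 member (2.17%), against 8.73% of all genes. Mrpl35 had that p (log2 difference 0.55, adjusted p = 0.48). The median over members was 0.05 and over all genes 0.06. In 2 members all KO eggs lay above all WT eggs and in 2 all lay below, where 9.94% of genes lay above and 5.57% below. Mrpl41 had the highest value (0.64, adjusted p = 0.60) and Mrps17 the lowest (-0.37, adjusted p = 0.68). Mrpl12 (0.36) and Mrps12 (0.05) were not called either. No change of the genotype difference between early embryos and eggs was called in any of 60 members, where 0.351% of all genes were called, 0.217% with a larger and 0.134% with a smaller difference. In limma 9 of the 60 members (15.0%) had an unadjusted p under 0.05, against 11.9% of all genes. Mrpl9 had the highest value (0.87, adjusted p = 0.21) and Mrpl41 the lowest (-1.09, adjusted p = 0.33).

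The genotype difference of late embryos was set against that of early embryos as a contrast of the 4 groups. It was larger in the late stage in 34 of 69 members and smaller in 1, where 20.4% of all genes were called, 12% higher and 8.4% lower. The median was 0.76 over members and 0.05 over all genes. By subunit, 19 of 46 large and 15 of 23 small subunit members were larger. Mrpl36 (2.77, SE 0.27), Mrpl28 (2.45, SE 0.61) and Mrps18c (2.21, SE 0.32) again led, with limma adjusted p of 3.2e-07, 0.0059 and 2.9e-05. The member with the smaller difference was Mrpl4 of the catalytic core (-0.87, SE 0.24, adjusted p = 0.011). It was at 18.9 to 24.9 FPKM in MZ-KO late embryos and 19.4 to 32.3 in WT late embryos, and at 4.53 to 9.98 FPKM in MZ-KO early embryos and 3.06 to 5.75 in WT early embryos. After median-ratio scaling 24 were larger and 3 (Mrpl4, Mrps6 and Mrpl40) smaller, where 7.4% of genes were called higher and 14.4% lower.

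**Figure D4:**
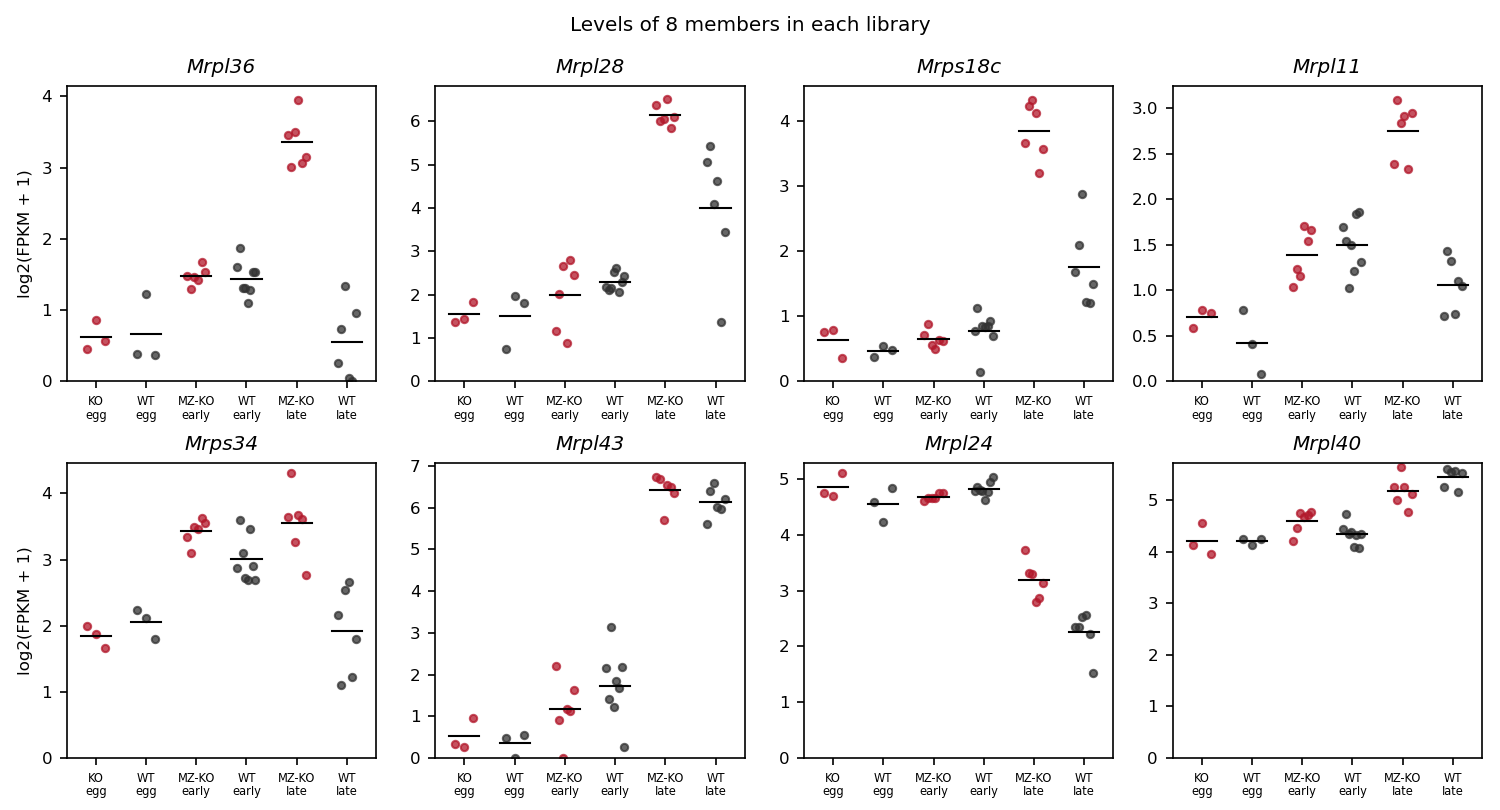
Level of 8 members in each library as log2(FPKM + 1), by group. Red points are libraries labelled KO or MZ-KO, dark points WT, and bars are group means. Mrpl36, Mrpl28, Mrps18c, Mrpl11 and Mrps34 lie higher in MZ-KO late than in WT late embryos, Mrpl43 climbs in both genotypes, Mrpl24 drops in both, and Mrpl40 overlaps.

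The WT stages give the course against which these differences stand. In WT early embryos against WT eggs, 28 of 57 tested members rose and 12 fell, where 51.3% of all genes were called, 30.4% higher and 20.9% lower. Mrpl55 rose most: it was at 5.00, 6.34 and 11.3 FPKM (lowest, median, highest) in WT early embryos and at 0.363, 1.29 and 1.53 in the 3 WT eggs, a log2 difference of 1.98 (SE 0.24, adjusted p = 4.4e-05). Mrpl17 (1.93), Mrps7 (1.77), Mrpl41 (1.71), Mrps18b (1.61) and Mrps2 (1.59) followed, each with every early embryo above every egg. In all, 22 members had every WT early embryo above every WT egg and 9 had every one below, where 24.9% and 16.7% of genes did. Mrpl21 fell most, to 1.04, 1.63 and 2.63 FPKM in WT early embryos against 10.6, 10.8 and 13.6 in WT eggs (-2.27, SE 0.16, adjusted p = 1.1e-06). The other large falls were Mrps36 (-1.67), Mrpl47 (-1.57), Mrps15 (-1.23), Mrpl18 (-1.23) and Mrpl34 (-1.21). Mrps36 shares its name with 3 annotated pseudogenes, so reads may be split between them.

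In knockout-labelled material over the same step, 24 of 57 members rose and 10 fell, where 49.2% of genes were called, 29.2% higher and 20% lower. In 23 members all MZ-KO early embryos lay above all KO eggs and in 11 all lay below, where 26.4% and 18.8% of genes did. Mrpl55 (2.51) and Mrps2 (1.93) had the largest rises and Mrpl21 (-2.13) the largest fall. Mrpl21 was at 1.37, 2.35 and 3.55 FPKM in MZ-KO early embryos and at 11.9, 13.8 and 14 in KO eggs.

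In WT late against WT early embryos the members went both ways. Of 63 tested, 31 rose and 20 fell, where 85.0% of all genes were called, 46.6% higher and 38.4% lower, and the median was 0.33 over members and 0.26 over all genes. Of the members, 51 of 63 were called, a share below that of all genes. Mrpl43 had the largest rise, with 48.1, 68.4 and 95.4 FPKM (lowest, median, highest) in WT late embryos and 0.194, 2.37 and 7.76 in WT early embryos (4.40, SE 0.34, adjusted p = 5.4e-09). Twnk, the mitochondrial DNA helicase gene, overlaps Mrpl43 on the other strand. Its genotype difference in late embryos was -0.13 (limma adjusted p = 0.71), and its change over the step from early to late embryos is not given here. Mrpl20 (3.87), Mrpl34 (3.29), Mrpl41 (3.28), Mrpl49 (3.08), Mrpl51 (2.80), Mrpl12 (2.65) and Mrpl4 (2.35) also rose, with every late embryo above every early one.

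The largest fall was in Mrpl24 of the tunnel exit, which had 1.89, 4.06 and 4.88 FPKM in WT late embryos and 23.6, 26.7 and 31.7 in WT early embryos (-2.57, SE 0.16, adjusted p = 3.5e-10). Mrpl53 (-2.01), Mrps14 (-1.56), Mrps33 (-1.41), Mrpl35 (-1.38) and Mrps23 (-1.30) fell as well. In these too every late embryo lay below every early one. In all, 23 members had every late embryo above and 15 every late embryo below, where 36.7% and 28.1% of genes did. The subunits differed in their medians, 0.48 in the large and 0.12 in the small, with 22 rises and 12 falls among 41 large and 9 rises and 8 falls among 22 small members. The difference of these medians, 0.35, was 1.53 among members that overlap no other gene. Of 15 tested large subunit proteins found in mitochondria only, 11 rose and 2 fell. Of 6 tested small subunit proteins found in mitochondria only, 1 rose and 4 fell. The difference between these lists was not tested.

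In MZ-KO late against MZ-KO early embryos, 45 of 66 members rose and 9 fell, where 81.7% of all genes were called, 48.3% higher and 33.3% lower. The median was 1.34 over members and 0.39 over all genes. Mrpl43 (5.25), Mrpl20 (4.63), Mrpl41 (4.28) and Mrpl28 (4.15) rose most. Mrpl24 fell most here as well, to 5.94, 8.33 and 12.3 FPKM in MZ-KO late embryos against 23.3, 24.3 and 26 in MZ-KO early embryos (-1.49). In 38 members all late embryos lay above all early ones and in 6 all lay below, where 40.1% and 25.7% of genes did. Mrpl48 (-1.10), Mrpl53 (-1.08) and Mrps33 (-0.98) followed.

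Of 62 members tested over this step in both genotypes, 29 rose in both (46.8%, against 41.6% of 8203 genes) and 9 fell in both (14.5%, against 31.9% of genes). Of the 20 members that fell in WT, 3 rose in MZ-KO material (15.0%) and 8 were not called (40%), where 1.48% and 16.1% of the 3169 genes that fell in WT did so. These differences from all genes were not tested. The 3 were Mrpl11, Mrpl30 and Mrpl36, named after their values were seen. The step in WT and the late genotype comparison share the WT late embryos. Mrps34 is an example of a member that fell in WT late against WT early embryos (-1.09, adjusted p = 8.95e-04), with 7.56 to 11.4 FPKM in MZ-KO early embryos and 5.46 to 11.1 in WT early embryos, and 5.83 to 18.8 in MZ-KO late embryos and 1.15 to 5.32 in WT late embryos.

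**Figure D5:**
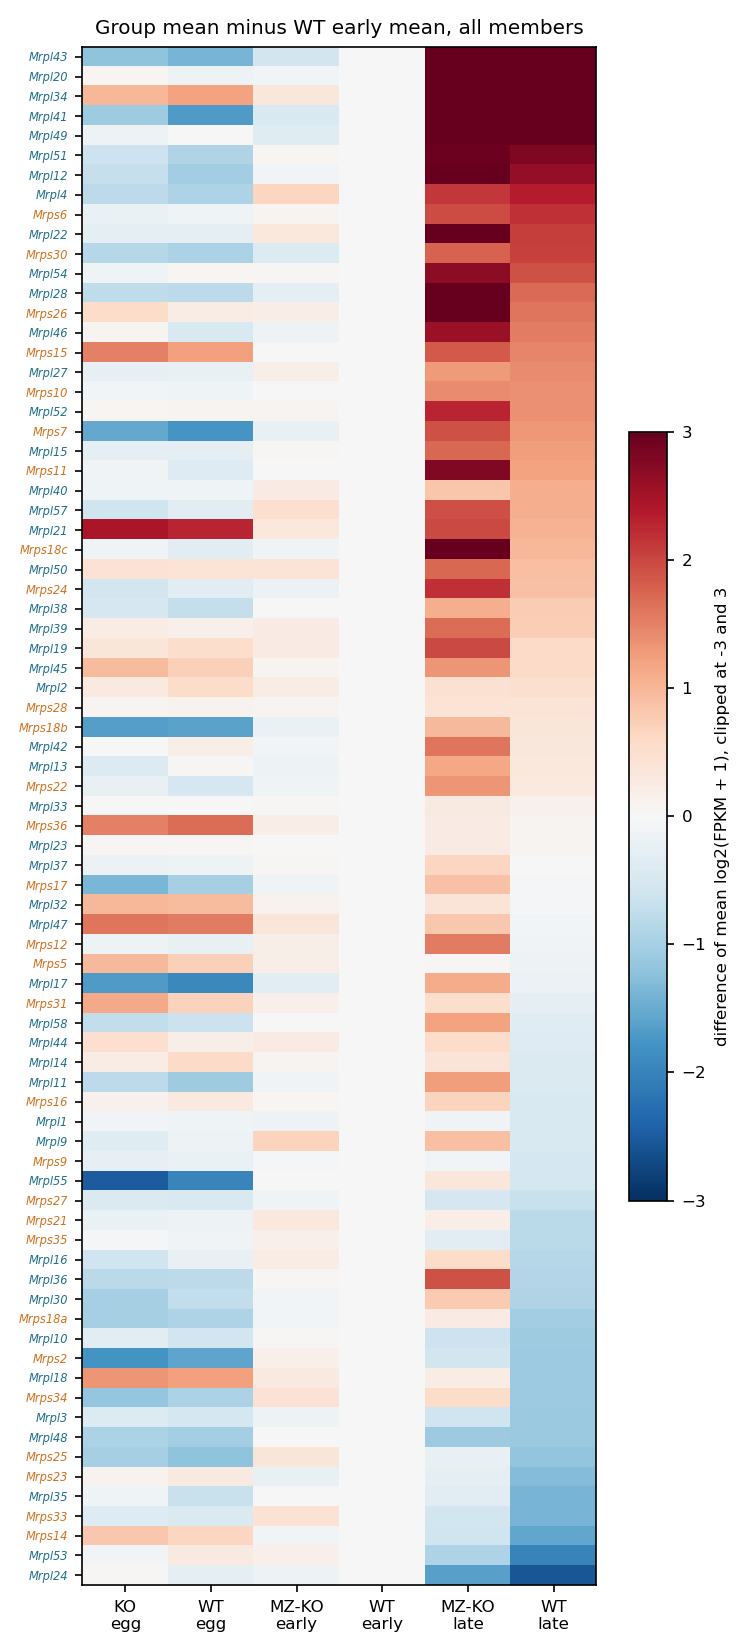
Mean log2(FPKM + 1) of each of the 78 members in each group, minus its mean in WT early embryos, with rows in the order of the WT late minus WT early difference and symbols coloured by subunit (blue large, orange small). Red is higher and blue lower than WT early embryos, clipped at -3 and 3. The upper rows are red in both late groups, and many of the lower rows are blue in WT late and paler or red in MZ-KO late embryos.

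Over the whole course, 33 of 63 members were higher and 14 lower in WT late embryos than in WT eggs, where 79.1% of all genes were called, 52.0% higher and 27.1% lower. Mrpl43 (5.79) and Mrpl41 (4.99) had gained most. Mrpl18 (-2.31), Mrpl24 (-2.30) and Mrpl53 (-2.27) had lost most. In 29 members all late embryos lay above all eggs and in 12 all lay below, where 46.9% and 24.5% of genes did.

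Levels were compared between members after rescaling FPKM from the genomic span to the exon length, since introns lower the FPKM of long genes. On this exon-scaled FPKM, Mrpl34 stood highest in late embryos, with medians of 278 in MZ-KO and 205 in WT late embryos. Next were Mrpl28 (150) and Mrpl20 (149) in MZ-KO late embryos, whose ranges overlap, and Mrps6 (163) in WT late embryos. Mrps6 overlaps 3 genes on the same strand, Slc5a3 among them, and the rescaling raises any reads of these genes along with its own. In eggs Mrpl18 was highest, at 198 in KO eggs and 189 in WT eggs, but it overlaps Tcp1, an abundant chaperonin gene, on the other strand. Mrpl23 was at or near the bottom in all 6 groups, with medians from 0 to 0.256. The median member of the large subunit was at 21.2 in MZ-KO late and 10.4 in WT late embryos, and that of the small subunit at 16.9 and 8.45. The small subunit had the higher median in KO eggs (4.25 large, 5.13 small), WT eggs (4.51 large, 5.55 small) and WT early embryos (6.89 large, 7.37 small), and the large subunit in MZ-KO early embryos (7.80 large, 6.69 small). A second measure used means of FPKM not rescaled to exon length. Within a library, the mean of log2(FPKM + 1) over large minus small subunit members was 0.80 ± 0.071 in MZ-KO late (SD, n = 6) and 0.78 ± 0.063 in WT late embryos (SD, n = 6). It was 0.28 ± 0.031 in MZ-KO early (SD, n = 6) and 0.25 ± 0.061 in WT early embryos (SD, n = 8), and 0.31 ± 0.11 in KO eggs and 0.32 ± 0.053 in WT eggs (SD, n = 3 each). The gap between subunits was wider in every late embryo (0.66 or more) than in every early embryo (0.32 or less), and at each stage the genotypes overlapped.

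Neighbouring gene groups of the late genotype comparison are given for scale, beside 18.5% of all genes called higher and 13.4% called lower. Of 72 tested nuclear genes of the respiratory chain and ATP synthase, 49 rose and 1 fell in MZ-KO late embryos, with a median of 0.78. Ndufb10 of complex I led, at 26.5 ± 4.40 FPKM in MZ-KO late embryos and 2.40 ± 1.45 in WT late embryos (SD, n = 6 each). Of 24 tested genes of mitochondrial protein import, 12 rose and 1 fell, with a median of 0.60. Of 71 tested cytosolic ribosomal protein genes, 4 rose and 7 fell, with a median of -0.09. Over the step to late from early embryos 60 of 62 cytosolic ribosomal protein genes rose in MZ-KO embryos, with a median of 2.47, and 60 of 63 rose in WT embryos, also with a median of 2.47, where 48.3% of all genes rose in MZ-KO and 46.6% in WT embryos. Differences between these groups of genes were not tested.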

How the data were processed

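RNA was measured in 32 single eggs or embryos. The authors' deposited table gives FPKM values for 54532 genes in each library, and the mouse build mm10, TopHat2, DESeq and DESeq2 are named per the submitters' processing notes, whose roles and versions are not given in the sources used here. Log2 fold changes and adjusted p-values of 1 further comparison were deposited with no group names. They were read as a late-embryo comparison, WT over MZ-KO, because of their correlation with the FPKM ratios. Column names give groups without replicate numbers, so numbers follow column order. No pair of libraries in a group correlated above 0.980, and each counted as 1 sample.

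The test was limma 3.58.1 on log2(FPKM + 1) (intensity trend, robust empirical Bayes, statmod 1.5.0) in R 4.3.3, since the table holds no counts. Each comparison used its own groups and the genes reaching FPKM 1 in a number of libraries no smaller than its smaller group, with Benjamini-Hochberg adjustment over all genes tested and calls below 0.05. The pseudocount of 1 understates changes of low genes. Low values of genes up to 2000 bp long came out as whole reads (within 0.1 read) in 99.3% or more of cases by genomic span, and in 78.2% or fewer by exon length. Annotation was GENCODE M21, which holds 54495 of the identifiers, and 27 symbols turned into dates were restored. The fit was tested on simulated data, with changes planted only in genes above a set mean level. Many members in eggs and early embryos lie below that level, so the simulation does not show how well their changes would be found. Named were the called members, the 12 largest in each direction where there were more, Mrpl12, Mrps12 and the uncalled extremes. The members and lists were chosen with earlier results of these data known. Alternatives were a pseudocount of 0.1, no filter, FPKM 5, median-ratio scaling, 1 fit over all libraries, leaving out each library, and, for the subunits, structural assignment and members that overlap no gene. Python 3.11.15, numpy 2.4.6, pandas 2.3.3 and matplotlib 3.10.9 were used.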

Additional observations from a re-analysis of the deposited data

Results flagged for a closer look

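The genotype difference of late embryos differed from that of early embryos in 35 members by the contrast of the 4 groups. The largest such contrasts, in log2 units, were Mrpl36 (2.77), Mrpl28 (2.45), Mrps18c (2.21), Mrpl11 (1.80), Mrpl30 (1.76), Mrpl17 (1.60), Mrpl58 (1.57), Mrps11 (1.57), Mrps12 (1.49), Mrps24 (1.49), Mrps18a (1.37) and Mrpl42 (1.35), and Mrpl4 went the other way (-0.87). Mrps12 lost its call without the filter (limma adjusted p = 0.0605) and with median-ratio scaling (limma adjusted p = 0.0602).

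In 2 of 42 groups of values a single library stood far from the rest of its group, and about 1 in 20 such groups do so by chance. WT late library 3 had 2.11 FPKM of Mrpl19, against at most 0.756 in the other WT late libraries. MZ-KO late library 5 had the lowest gap between large and small subunit means, 0.66 on the log2 scale, and also the lowest summed level of the members in its group.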

How the results depend on the processing

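The count of members higher in MZ-KO late embryos (45) had 0 falls beside it under each alternative but 1. It was 45 with a pseudocount of 0.1, 40 without a filter, 24 of 38 tested at FPKM 5, and 35 with median-ratio scaling. One fit over all libraries gave 52 calls, of which 51 were rises and 1 a fall, Mrps6 (-0.24, adjusted p = 0.040). Leaving out each library in turn gave 40 to 49. No paired analysis was possible because the columns carry no replicate numbers. The filter at FPKM 5, which tests fewer genes, gave 2 calls in early embryos between genotypes, 18 in WT early against WT egg, 25 in WT late against WT early, 26 in WT late against WT egg, 19 in MZ-KO early against KO egg, 31 in MZ-KO late against MZ-KO early, and 21 in the late minus early contrast. The count in early embryos between genotypes (1) was 0 without a filter and 2 in 1 fit over all libraries, and 1 to 4 without each library (4 without WT early library 2). It was 0 of 24 tested among members that overlap no other gene.

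The difference of subunit medians, large minus small, depended most on the choices, and the cause was not tested. For MZ-KO late against WT late embryos (-0.13) it was -0.25 with a pseudocount of 0.1 and -0.16 to -0.07 without each library. For WT early against WT egg (-0.05) it was 0.11 by structural assignment, 0.57 without overlapping members, -0.24 with a pseudocount of 0.1, -0.85 at FPKM 5 and -0.21 to 0.12 without each library. For WT late against WT early (0.35) it was 1.53 without overlapping members, 1.65 at FPKM 5 and 0.24 to 0.40 without each library. For MZ-KO late against MZ-KO early (0.07) it was 1.17 without overlapping members, 0.23 with a pseudocount of 0.1, 0.44 at FPKM 5 and -0.0018 to 0.24 without each library.

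Among the named members the sign turned in Mrps12 alone, where it was not called. With median-ratio scaling it was -0.0096 in eggs between genotypes and -0.11 in WT late against WT egg. Without each library it was -0.22 to 0.43 in eggs, -0.047 to 0.59 in WT early against WT egg, -0.30 to 0.088 in WT late against WT early, -0.16 to 0.47 in WT late against WT egg, and -0.26 to 0.39 in the early minus egg contrast. Members with few reads are the least certain: 71 of 2496 values rest on fewer than 10 reads.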

Other observations

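Further lists of genes of mitochondrial translation were tested in late embryos. Of 20 tested genes for assembly and ribosomal RNA modification 5 rose and 0 fell in MZ-KO late embryos, with a median of 0.27, where 18.5% of all genes were called higher and 13.4% lower. Whether this list or the next ones differ from all genes was not tested. Mterf4, which guides a methyltransferase to the large subunit, led with a log2 difference of 1.76 (SE 0.25, limma adjusted p = 3.0e-04), at 5.24 ± 1.72 FPKM in MZ-KO late embryos and 0.840 ± 0.559 in WT late embryos (SD, n = 6 each). Of 6 tested translation factor genes 3 rose, among them the elongation factor gene Tufm (0.68, adjusted p = 0.049), at 3.39 ± 0.964 FPKM in MZ-KO late embryos and 1.82 ± 0.97 in WT late embryos (SD, n = 6 each). Of 7 tested mitochondrial tRNA synthetase genes 2 rose and 1 fell: Yars2 (1.42) and Ears2 (0.81) were higher and Lars2 (-0.54) was lower. Of 4 tested mitoribosomal proteins that carry other symbols, Aurkaip1 rose (1.03, adjusted p = 0.012).

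The RNA side of the ribosome was not seen. All 37 genes of the mitochondrial genome are listed at 0 in every library, so the mitochondrial ribosomal RNAs and the messages they translate gave no values to set beside the proteins.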
